A study of Schmidtea mediterranea with 15 samples.

Results

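The records described here are 264 sequence records of the planarian flatworm Schmidtea mediterranea whose identifiers start with neither GDAG nor BK, leaving out AF112361.1, and whose mean over 15 poly(A) RNA libraries was at least 10 CPM. CPM is a record's count scaled to a library of 1000000 counts. The count table held 92053 records, of which 487 carried such identifiers at any level and 10097 records of any kind reached that mean. A working name for the set, mRNA records deposited singly, could not be checked, because the files used here pair no identifier with a gene name, a function or a sequence. Records are therefore given by identifier, with no gene name, role or sequence. The records were chosen by their measured mean CPM, so their levels are a description and support nothing.

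Planarians regrow missing body parts from a population of adult stem cells, the neoblasts, together with a rescaling of the tissue that remains. After a cut, a wound response is followed by growth of new tissue at the wound, and organs of the missing regions are rebuilt. Sexual planarians carry a reproductive system that is built as the animal matures and that can regress and return after injury.

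All libraries came from animals of the sexual S2F2 biotype, with no transgene, knockdown or drug named in the labels. There were 3 libraries each of trunk fragments at day 0 and of regenerating trunk fragments at days 3, 5 and 7, and 3 of whole intact juveniles. Whether replicates were separate animals, pools or repeat preparations is not in the labels. The p-values thus rest on the spread among these 3 libraries a group, part of which may be technical. Juveniles differ from day 0 trunks in stage and in body part at once, and these cannot be told apart. In such bulk RNA, fewer cells of a type and less RNA per cell cannot be told apart either. Tissue markers could not be checked without gene names.

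Libraries held between 20338464 and 59034917 counts, and each of the 264 records had at least 19 counts in every library. On the first principal component of all records tested, which held 66.6% of the variance, day 0 libraries lay at -105, -106 and -178 and day 3 libraries at -11.4, -16.1 and -95.3. Day 7 libraries lay at 51.5, 123 and 1.34, and juveniles lay between 156 and 174. Replicate 3 of day 0 and replicate 3 of day 3 therefore stood apart from the other libraries of their groups. Day 7 libraries were spread out with no close pair, and replicate 2 lay nearest to juveniles. Below, these 3 are called the libraries that stood apart. Leaving those 3 libraries out together gave 49 called records at day 3 against day 0, 62 at day 5, 81 at day 7 and 146 in juveniles. With all libraries these counts were 47, 64, 94 and 150.

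Together the 264 records made up 6.44 ± 0.0425% of each day 0 library, 7.00 ± 0.236% at day 3, 7.32 ± 0.198% at day 5, 7.39 ± 0.110% at day 7 and 7.47 ± 0.401% in juveniles (SD, n = 3 each). A single record, JX010577.1, took 3.61 ± 0.0870% at day 0, 3.98 ± 0.255% at day 3, 4.12 ± 0.185% at day 5, 4.26 ± 0.0927% at day 7 and 4.19 ± 0.353% in juveniles. Without it, the other records took 2.83% at day 0, 3.02% at day 3, 3.20% at day 5, 3.13% at day 7 and 3.27% in juveniles. These shares are of raw totals, whereas the CPM values of single libraries, the group means and the tests that follow use library sizes with TMM scaling (a trimmed mean of log ratios). Mean levels over all 15 libraries are in raw CPM, the scale on which the records were chosen. With TMM scaling, JX010577.1 had 38641, 40981 and 39685 CPM at day 0, 42794, 40192 and 37150.3 at day 3, 45003, 40151 and 39003 at day 5, 43059, 44410.1 and 41064 at day 7 and 35385, 42915 and 36284 in juveniles. Its groups overlapped, and no comparison called it: the log2 fold change was 0.11 ± 0.0756 (SE) at day 7 and -0.06 ± 0.0756 in juveniles, both against day 0 (adjusted p = 0.35 and 0.61).

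The next records by read share were JX010523.1 and JX010510.1. JX010523.1 had 4109, 4017 and 4378 CPM at day 0, 4252, 3827 and 4773 at day 3, 4801, 4354 and 4089.7 at day 5, 3894, 3909 and 3413 at day 7 and 2437, 3061 and 2534 in juveniles. All 3 juvenile libraries lay below every trunk library. The record fell in juveniles against day 0 (log2 fold change -0.64 ± 0.0958 (SE), adjusted p = 0.00017), while no later trunk group was called against day 0. JX010510.1 had 4223, 3759 and 3963 CPM at day 0, 3319, 3480.0 and 3176 at day 3, 3647, 3374 and 3317 at day 5, 3428, 3465 and 2958 at day 7 and 3459, 3259.5 and 2607 in juveniles. Its 3 day 0 libraries were higher than every other library. It was called lower in juveniles against day 0 (log2 fold change -0.36 ± 0.0899 (SE), adjusted p = 0.0063). The day 7 call against day 0 for JX010510.1 (log2 fold change -0.28 ± 0.0898 (SE), adjusted p = 0.035) was lost in 8 of 15 fits that each left out 1 library, with an adjusted p of up to 0.14. These left out day 0 replicate 1 or 3, day 3 replicate 1 or 2, day 5 replicate 2 or any 1 library of day 7.

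Most of the 264 records took far fewer reads. The median of their mean levels over 15 libraries was 29.4 raw CPM, the quartiles were 17.0 and 73.1 raw CPM, 89 records lay under 20 and 50 reached 100. Since record lengths are not in the files, CPM does not rank records by transcript number. Just inside the minimum was KC262342.1 at 10.1 raw CPM, and just outside it was KC262347.1 at 9.71 raw CPM; 223 records with such identifiers lay under the minimum, of which 4 had no count. In 232 of the 264 records all 5 group means were at least 10 CPM with TMM scaling, while 32 had a group mean under 10 CPM, among them 19 with a juvenile mean under 10 CPM. These 32 reached the minimum through their higher groups. Calls of these 32 between a higher and a lower group are therefore description only.

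Levels of most records moved little between the 5 groups. The ratio of the highest to the lowest group mean had a median of 1.29 over the 264 records and of 1.27 over all records of at least 10 CPM. It was under 1.25 in 116 records (43.9%, against 46.6% of all records of at least 10 CPM), at least 2 in 27 (10.2%, against 9.95%), at least 4 in 14 (5.30%, against 5.59%) and at least 10 in 9 (3.41%, against 4.70%). The highest mean fell at day 0 in 86 records and in juveniles in 88, and at day 3, day 5 and day 7 in 14, 51 and 25. Juveniles held the lowest mean in 96 records and day 0 in 78. The commonest pairing was a highest mean at day 0 with a lowest mean in juveniles, in 49 records, followed by the opposite, in 47. Among the 27 records with a ratio of at least 2, the lowest mean was in juveniles in 22 and the highest was at day 0 in 13. Of these 27, 16 had a group mean under 10 CPM and so reached the minimum through their higher groups, 14 of them with a juvenile mean under 10 CPM as their lowest. Of the 11 with all group means at 10 CPM or more, 8 had the lowest mean in juveniles. All records of at least 10 CPM leaned the same way, on another measure. At an edgeR adjusted p under 0.05, 7.65% were at least 2-fold lower in juveniles than at day 0 and 0.733% higher.

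**Figure D1:**
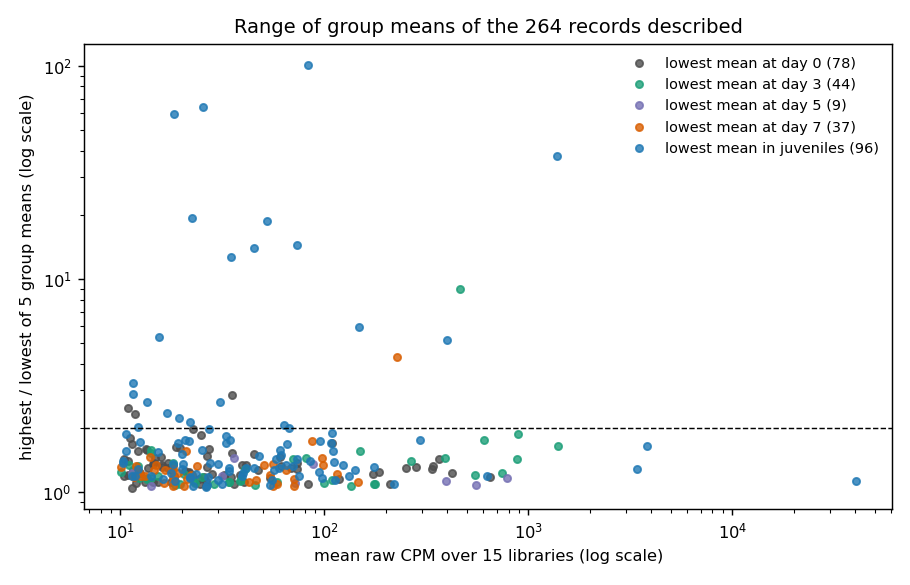
Ratio of the highest to the lowest of the 5 group means (vertical axis, log scale) against mean raw CPM over 15 libraries (horizontal axis, log scale) for the 264 records, coloured by the group with the lowest mean. The dashed line marks a ratio of 2, which 27 records reached, 22 of them with the lowest mean in juveniles.

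Spread within groups was small for most records. The median coefficient of variation over 3 libraries was 6.85% at day 0, 6.44% at day 3, 4.68% at day 5, 4.53% at day 7 and 5.60% in juveniles. It passed 50% in 9 records at day 0, 5 at day 3, none at day 5, 5 at day 7 and 3 in juveniles. The widest spread was that of HM639987.1 at day 7, at 97.2%.

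A record was called where its Benjamini-Hochberg adjusted p over 46736 records tested was under 0.05 in edgeR's quasi-likelihood test. At day 3 against day 0, 24 of the 264 records were higher (9.09%) and 23 were lower (8.71%), beside 3.02% higher and 5.48% lower of all records tested, and 5.4% higher and 15.4% lower of all records of at least 10 CPM. The replicate number was also tried as a block, since same-numbered libraries of these groups correlated. That fit applied the block to all 15 libraries, not to these groups alone. In it, day 3 against day 0 called 62 (26 higher, 36 lower). At day 5 against day 0, 48 were higher (18.2%) and 16 lower (6.06%), beside 3.23% and 5.64% of all records and 7.6% and 15.7% of those of at least 10 CPM. At day 7 against day 0, 44 were higher (16.7%) and 50 lower (18.9%), beside 7.87% and 16% of all records and 13.1% and 29.8% of those of at least 10 CPM. In juveniles against day 0, 68 were higher (25.8%) and 82 lower (31.1%), beside 12.1% and 19% of all records and 16.3% and 39.7% of those of at least 10 CPM. In all 4 comparisons the 264 records thus held a larger share of calls as higher, and a smaller share as lower, than records of at least 10 CPM. That is a description with no test of its own. These comparisons share the day 0 libraries and are not independent.

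Called differences were mostly small. Among called records the median size of the log2 fold change lay between 0.345 and 0.42 in each of the comparisons that made calls. A change of at least 2-fold was reached by 4 called records that rose and 1 that fell at day 3 against day 0, beside 0.426% and 0.753% of all records of at least 10 CPM. At day 5 it was reached by 3 and 0, beside 0.396% and 1.45%, and at day 7 by 3 and 8, beside 0.634% and 6.28%. In juveniles it was reached by 4 and 17, beside 0.733% and 7.65%. The counts are out of 264 records and the percentages are of 10097. The median log2 fold change of the 264 records was -0.0192 at day 3, 0.0336 at day 5, -0.00556 at day 7 and -0.0186 in juveniles, beside -0.00136, -0.0158, 0.041 and 0.0633 over all records tested and -0.0849, -0.061, -0.0753 and -0.115 over records of at least 10 CPM. Fitted on day 0 and day 3 libraries alone, the day 3 comparison called 8 records, and without replicate 2 of day 3 it called 24 (19 higher, 5 lower). Day 5 calls numbered 40 without replicate 2 of day 5, and day 7 calls numbered 58 in a fit of the day 0 and day 7 libraries alone.

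**Figure D2:**
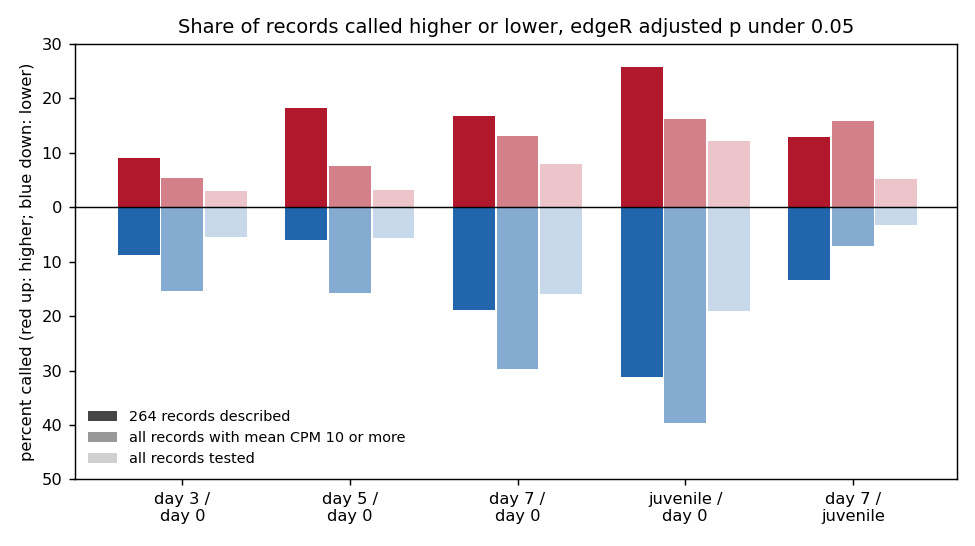
Percent of records called higher (red, upward) and lower (blue, downward) at an edgeR adjusted p under 0.05 in 5 comparisons, for the 264 records (darkest bars), all records of at least 10 CPM and all records tested (palest bars). Juveniles against day 0 had the tallest bars, 25.8% higher and 31.1% lower among the 264.

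Among the records with the smallest adjusted p at days 3, 5 and 7, those that rose went up by less than 2-fold. JX010560.1 had 19.5, 17.1 and 22.0 CPM at day 0, 25.8, 26.9 and 27.4 at day 3, 34.0, 36.6 and 33.6 at day 5, 35.5, 35.3 and 36.9 at day 7 and 53.5, 59.5 and 54.96 in juveniles. Trunk libraries of every later day lay above the day 0 libraries, and those of juveniles lay above all trunk libraries. It rose at day 3 (log2 fold change 0.45 ± 0.0759 (SE), adjusted p = 0.0018), at day 5 (log2 fold change 0.83 ± 0.0760 (SE), adjusted p = 9.6e-06) and at day 7 (log2 fold change 0.88 ± 0.0760 (SE), adjusted p = 1.8e-06). GU290186.1 had 20.5, 19.3 and 19.8 CPM at day 0, 29.3, 26.7 and 26.1 at day 3, 30.3, 28.7 and 28.5 at day 5, 28.4, 29.5 and 29.3 at day 7 and 26.5, 26.2 and 26.5 in juveniles. No day 0 library overlapped any other group. Against day 0 the record was 1.38-fold higher at day 3, 1.47-fold at day 5 and 1.46-fold at day 7 (adjusted p = 0.00017, 2.7e-05 and 8.5e-06). JX010535.1 had 13.5, 14.96 and 14.2 CPM at day 0, 21.7, 22.4 and 21.0 at day 3, 19.0, 19.6 and 19.0 at day 5, 21.8, 20.1 and 19.6 at day 7 and 9.78, 9.64 and 8.35 in juveniles. Its regenerating libraries lay above day 0, and its juvenile libraries lay below every trunk library. It rose at day 3 (log2 fold change 0.61 ± 0.0729 (SE), adjusted p = 0.00014) and was also called higher at day 5 and day 7 (adjusted p = 0.0014 and 0.00013).

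Falling records with the smallest adjusted p fell by less than 2-fold. JQ035530.1 had 120.3, 121 and 119.8 CPM at day 0, 96.7, 93.4 and 102 at day 3, 95.3, 94.1 and 93.2 at day 5, 91.6, 89.4 and 88.6 at day 7 and 90.6, 92.0 and 103 in juveniles. Its day 0 libraries lay within a narrow range above all 12 others. It fell at day 3 (log2 fold change -0.31 ± 0.0514 (SE), adjusted p = 0.0018), day 5 (log2 fold change -0.35 ± 0.0514 (SE), adjusted p = 0.0004) and day 7 (log2 fold change -0.42 ± 0.0514 (SE), adjusted p = 3.8e-05). JX010484.1 had 141, 144 and 144 CPM at day 0, 113, 97.2 and 109 at day 3, 121, 118 and 110.2 at day 5, 95.9, 108 and 96.3 at day 7 and 93.6, 80.6 and 100.4 in juveniles. Its groups at day 0 and day 3 did not overlap, and it fell at day 3 (log2 fold change -0.43 ± 0.0751 (SE), adjusted p = 0.0025). JX010505.1 had 131, 146 and 104 CPM at day 0, 94.4, 78.6 and 85.3 at day 3, 83.4, 71.8 and 76.1 at day 5, 75.3, 73.3 and 71.5 at day 7 and 69.1, 79.5 and 75.5 in juveniles. Day 0 was its most variable group, yet no later library reached the lowest day 0 library. It fell at day 5 (log2 fold change -0.72 ± 0.106 (SE), adjusted p = 0.00081) and at day 7 (log2 fold change -0.79 ± 0.106 (SE), adjusted p = 0.00019). Its day 3 call (adjusted p = 0.0057) was lost without replicate 2 of day 3, at an adjusted p of 0.06. JF802198.1 had 123, 124 and 119 CPM at day 0, 106, 96.9 and 98.5 at day 3, 96.8, 99.97 and 90.9 at day 5, 96.4, 90.0 and 85.4 at day 7 and 67.6, 72.2 and 70.4 in juveniles. Day 0 was highest and juveniles were lowest without overlap, and it fell at day 7 against day 0 (log2 fold change -0.43 ± 0.0558 (SE), adjusted p = 6.9e-05). Fits of only the 2 groups compared did not call JQ035530.1 at day 3. Other records named in this report also lost their day 3 call in that fit. The day 3 calls given here, of rising or falling records, are therefore not to be read as held in it. Over all comparisons, fits of only the groups compared kept 85 tested differences of single records as calls and lost 31.

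**Figure D3:**
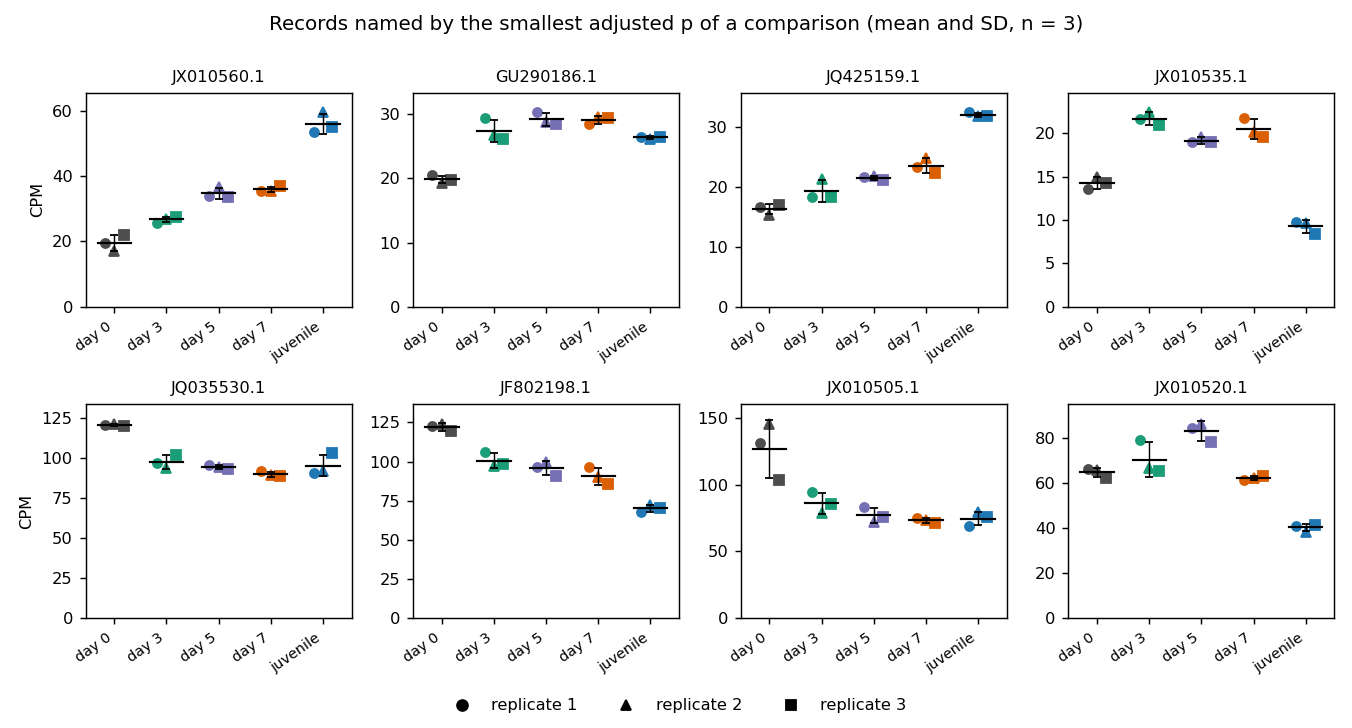
CPM (vertical axes, from 0) in each of 15 libraries for 8 records with the smallest adjusted p in a comparison, with the mean and SD of 3 libraries per group. JX010560.1 rose over the days and was highest in juveniles, whereas JQ035530.1, JF802198.1 and JX010505.1 were highest at day 0.

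Neighbouring days differed in few of the 264 records. Day 5 against day 3 called 0 of them with edgeR, beside 0.0193% of all records tested. At an unadjusted p under 0.05 there were 35 (31 higher, 4 lower), and DESeq2 called 3. For neighbouring days and day 7 against day 3, shares over all records at an unadjusted p or with DESeq2 were not worked out. Those counts and their directions are description only. Day 7 against day 5 called 3 as lower (1.14%) and 0 as higher, beside 0.52% and 0.28% of all records tested. Shares over records of at least 10 CPM were not worked out for neighbouring days or for day 7 against day 3. At an unadjusted p under 0.05 there were 50 (12 higher, 38 lower), and DESeq2 called 9. With other settings there were 10 calls in a fit of the 2 groups alone, 5 with no filter on low counts and 8 once the 3 libraries that stood apart were dropped. Fits that each dropped 1 library gave 1 to 6 calls: 1 for day 5 replicate 1 and for day 7 replicates 2 and 3, 5 for day 3 replicate 1 and 6 for day 0 replicate 3. The 3 were JX010520.1, JX010469.1 and JX010471.1, the last 2 named after their values were seen. JX010520.1 had 66.1, 65.7 and 62.4 CPM at day 0, 79.3, 66.4 and 65.5 at day 3, 84.6, 86.4 and 78.1 at day 5, 61.2, 62.0 and 63.0 at day 7 and 40.9, 38.3 and 41.5 in juveniles. Every day 5 library but 1 lay above all day 3 libraries, no day 7 library reached day 5, and the record fell at day 7 against day 5 (log2 fold change -0.42 ± 0.0671 (SE), adjusted p = 0.0054). JX010469.1 averaged 62.1 ± 1.71 CPM at day 7 and 76.3 ± 1.56 CPM at day 5 (SD, n = 3 each; log2 fold change -0.30 ± 0.0551 (SE), adjusted p = 0.014), and JX010471.1 averaged 59.9 ± 1.11 and 81.6 ± 4.28 CPM at those days (log2 fold change -0.45 ± 0.0927 (SE), adjusted p = 0.036). The call of JX010469.1 was lost without replicate 1 or 2 of day 5 or replicate 2 or 3 of day 7 (adjusted p up to 0.077), and that of JX010471.1 without replicate 1 of day 0 or juveniles or any 1 library of day 5 or day 7 (adjusted p up to 0.19).

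Day 7 against day 3 called 4 records as higher (1.52%) and 0 as lower, beside 0.424% and 0.787% of all records tested. At an unadjusted p under 0.05 there were 47 (25 higher, 22 lower), and DESeq2 called 12. Other settings gave 2 in a fit of the 2 groups alone, 2 without the low-count filter and 1 without the 3 libraries that stood apart. Leaving out 1 library gave 1 without day 7 replicate 2, 2 without day 3 replicate 1 or 3, day 7 replicate 1 or juvenile replicate 3, and 3 or 4 otherwise. JX010560.1, described above, was among them (log2 fold change 0.43 ± 0.0748 (SE), adjusted p = 0.0052). HM803281.1 had 319, 309 and 312 CPM at day 7, against 277, 259.9 and 242 CPM at day 3 (log2 fold change 0.27 ± 0.0581 (SE), adjusted p = 0.026). JX842846.1 had 13.9, 14.9 and 13.6 CPM at day 7, against 10.5, 11.8 and 11.5 CPM at day 3 (log2 fold change 0.33 ± 0.0705 (SE), adjusted p = 0.026). Groups did not overlap for either. JX010559.1, the last of the 4, is described below. Leaving out 1 library ended the call of HM803281.1 in 6 of 15 fits (day 3 replicate 2 or 3, any day 7 replicate or juvenile replicate 3, adjusted p up to 0.2). It ended that of JX842846.1 in 4 (day 3 replicate 1 or 3, day 7 replicate 1 or 2, adjusted p up to 0.16), while that of JX010560.1 held in all 15. Across the 4 trunk groups, an F test called 81 of the 264 records (30.7%), beside 14.3% of all records tested and 32.6% of those of at least 10 CPM.

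Whole juveniles against day 0 trunks gave the most calls. The highest-ranked rising records were JX010560.1, at 53.5, 59.5 and 54.96 CPM in juveniles, against 19.5, 17.1 and 22.0 CPM at day 0 (log2 fold change 1.52 ± 0.0769 (SE), adjusted p = 8.4e-10), and JQ425159.1. JQ425159.1 had 16.6, 15.3 and 16.9 CPM at day 0, 18.3, 21.3 and 18.2 at day 3, 21.6, 21.7 and 21.1 at day 5, 23.3, 24.8 and 22.4 at day 7 and 32.4, 31.8 and 31.8 in juveniles. Juveniles lay above every trunk library, and the juvenile libraries were within 1 CPM of each other (log2 fold change 0.97 ± 0.0698 (SE), adjusted p = 4.2e-08). GU592830.1 had 16.8, 16.8 and 13.5 CPM in juveniles, against 6.77, 6.79 and 5.56 CPM at day 0 (log2 fold change 1.31 ± 0.113 (SE), adjusted p = 3.5e-07), and JX010496.1 had 16.5, 19.6 and 16.1 CPM in juveniles, against 6.50, 7.34 and 8.64 CPM at day 0 (log2 fold change 1.21 ± 0.143 (SE), adjusted p = 1.1e-05). With JX010559.1 and JX010560.1, these are the 4 records called at least 2-fold higher in juveniles, named after their values were seen apart from JX010560.1. GU592830.1 and JX010496.1 had day 0 means under 10 CPM and reached the minimum through their higher groups, so their calls are description only.

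Of the falling records, JF802198.1 and GU591870.1 had the smallest adjusted p. JF802198.1 had 67.6, 72.2 and 70.4 CPM in juveniles, against 123, 124 and 119 CPM at day 0, and fell by 1.74-fold (log2 fold change -0.80 ± 0.0562 (SE), adjusted p = 3.3e-08). GU591870.1 had 80.01, 77.9 and 71.3 CPM at day 0, 63.6, 59.2 and 60.0 at day 3, 65.5, 60.1 and 61.1 at day 5, 58.9, 59.5 and 56.8 at day 7 and 50.3, 50.01 and 44.5 in juveniles. Juvenile libraries lay below all trunk libraries and day 0 libraries above all others. The record fell in juveniles (log2 fold change -0.66 ± 0.0609 (SE), adjusted p = 7.4e-07). JX010479.1, chosen after its values were seen, had 18.9, 28.5 and 23.7 CPM at day 0, 19.8, 21.7 and 21.5 at day 3, 19.9, 14.2 and 15.5 at day 5, 13.5, 14.5 and 12.5 at day 7 and 3.22, 4.55 and 5.54 in juveniles. Its juvenile libraries lay below every trunk library. It was 5.34-fold lower in juveniles than at day 0 (log2 fold change -2.42 ± 0.197 (SE), adjusted p = 2.2e-06) and lower at day 7 than at day 0 (log2 fold change -0.82 ± 0.184 (SE), adjusted p = 0.0085). The day 7 call was lost in the fit without the 3 libraries that stood apart. JX010479.1 had a juvenile mean under 10 CPM and reached the minimum through its higher groups, so its juvenile call is description only.

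Day 7 fragments against juveniles called 34 of the 264 records higher (12.9%) and 35 lower (13.3%), beside 5.21% and 3.21% of all records tested and 15.8% and 7.15% of those of at least 10 CPM. In this comparison the share called higher was below that of records of at least 10 CPM and the share called lower above it, again with no test. Without replicate 2 of juveniles the calls numbered 44 (26 higher, 18 lower). Of the 264 records, 10 were called at least 2-fold higher at day 7 and 1 at least 2-fold lower, beside 2.53% and 0.515% of all records of at least 10 CPM. JX010535.1 had 21.8, 20.1 and 19.6 CPM at day 7, against 9.78, 9.64 and 8.35 CPM in juveniles, without overlap (log2 fold change 1.15 ± 0.0738 (SE), adjusted p = 7e-08). With a juvenile mean under 10 CPM, that record reached the minimum through its higher groups, so this call is description only. JX010520.1 had 61.2, 62.0 and 63.0 CPM at day 7, against 40.9, 38.3 and 41.5 CPM in juveniles, also without overlap (log2 fold change 0.63 ± 0.0676 (SE), adjusted p = 1.3e-05). Lower at day 7 than in juveniles were JX010560.1 (log2 fold change -0.64 ± 0.0746 (SE), adjusted p = 2.9e-05) and JQ425159.1 (log2 fold change -0.44 ± 0.0684 (SE), adjusted p = 0.00043), whose day 7 libraries all lay below the juvenile ones. KC161223.1, chosen after its values were seen, had 76.7, 72.1 and 67.2 CPM at day 0, 70.2, 79.5 and 64.2 at day 3, 85.1, 71.9 and 75.03 at day 5, 84.4, 84.6 and 67.3 at day 7 and 45.1, 38.4 and 34.2 in juveniles. It was 2.01-fold higher at day 7 than in juveniles (log2 fold change 1.005 ± 0.118 (SE), adjusted p = 0.00011), and no trunk group was called against day 0.

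Among the 27 records whose group means differed by at least 2-fold, 7 varied together between libraries. These 7 and the records that follow were chosen after their values were seen. HM100652.1, with the largest ratio of group means of the 264 (101), had 142, 151 and 442 CPM at day 0, 34.4, 41.4 and 160.3 at day 3, 64.5, 98.8 and 112 at day 5, 16.5, 3.31 and 43.5 at day 7 and 2.07, 1.56 and 3.67 in juveniles. Replicate 3 was the highest of its group at day 0 and day 3, and at day 7 replicate 2 was the lowest and replicate 3 the highest. HM100651.1 had 72.2, 74.4 and 199 CPM at day 0, 26.7, 31.5 and 93.1 at day 3, 31.0, 49.4 and 64.1 at day 5, 12.5, 6.62 and 26.6 at day 7 and 7.81, 7.81 and 9.12 in juveniles. HM639987.1 had 42.2, 46.7 and 126 CPM at day 0, 13.4, 13.3 and 51.5 at day 3, 19.5, 30.5 and 35.9 at day 5, 5.12, 1.24 and 14.3 at day 7 and 0.911, 0.865 and 1.58 in juveniles. The same order of libraries held for both: high at day 0 replicate 3, lowest among trunks at day 7 replicate 2.

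HM639989.1 had 29.3, 29.1 and 97.5 CPM at day 0, 7.49, 9.83 and 30.3 at day 3, 20.1, 22.9 and 21.2 at day 5, 5.85, 0.756 and 13.4 at day 7 and 0.701, 0.470 and 1.45 in juveniles. HM055596.1 had 32.3, 32.9 and 109 CPM at day 0, 8.23, 12.4 and 34.4 at day 3, 24.9, 29.7 and 29.7 at day 5, 7.504, 2.33 and 19.5 at day 7 and 3.01, 2.47 and 3.48 in juveniles. Day 7 replicate 2 of both lay within or near the juvenile range, while the other 2 day 7 libraries lay above it. JQ036187.1 had 16.4, 13.6 and 35.9 CPM at day 0, 6.32, 8.57 and 15.6 at day 3, 11.2, 12.4 and 13.9 at day 5, 7.78, 6.13 and 9.43 at day 7 and 7.36, 7.09 and 5.87 in juveniles, and JX010593.1 had 35.6, 37.3 and 86.0 CPM at day 0, 21.9, 23.0 and 43.3 at day 3, 28.1, 33.9 and 35.6 at day 5, 22.0, 18.1 and 25.6 at day 7 and 19.7, 22.1 and 18.2 in juveniles. These last 2 spanned a smaller range, with their day 7 and juvenile libraries overlapping. In all 7, every day 7 library lay below every day 0 library. Over the 12 trunk libraries the pairwise Pearson correlations of log2(CPM + 1) among the 7 lay between 0.888 and 0.998, a description in which the points share library, depth and group.

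All 7 were called lower at day 7 and in juveniles than at day 0. HM100652.1 fell most in juveniles (log2 fold change -6.67 ± 1.13 (SE), adjusted p = 0.0014), followed by HM639987.1 (log2 fold change -6.01 ± 1.04 (SE), adjusted p = 0.0015), HM639989.1 (log2 fold change -5.92 ± 1.11 (SE), adjusted p = 0.0023), HM055596.1 (log2 fold change -4.28 ± 0.879 (SE), adjusted p = 0.0037) and HM100651.1 (log2 fold change -3.81 ± 0.711 (SE), adjusted p = 0.0022). JQ036187.1 (-1.70 ± 0.405) and JX010593.1 (-1.41 ± 0.365) fell less (adjusted p = 0.0083 and 0.013). All of the 7 but JX010593.1 had a juvenile mean under 10 CPM. They reached the minimum through higher groups, of which day 0 was the highest, so their calls against day 0 are description only. The juvenile calls held in all 15 fits that each left out 1 library. At day 7 against day 0 the log2 fold changes ran from -3.54 ± 0.941 (SE, HM100652.1, adjusted p = 0.021) to -1.28 ± 0.362 (JX010593.1, adjusted p = 0.027). Those day 7 calls did not hold when certain single libraries were left out. Each of the 7 was lost without day 7 replicate 1, and each but HM100651.1 without day 0 replicate 3. Adjusted p-values then reached up to 0.17. The log2 fold change stayed negative in all 15 such fits, from -3.59 to -2.27 for HM100651.1 and -1.50 to -0.74 for JX010593.1. HM639989.1 and HM055596.1 lost that call in 10 of 15 such fits, also without day 3 replicate 2, day 7 replicate 2 or any 1 library of day 5 or juveniles. No fit of day 0 and day 7 libraries alone called any of the 7 at day 7.

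**Figure D4:**
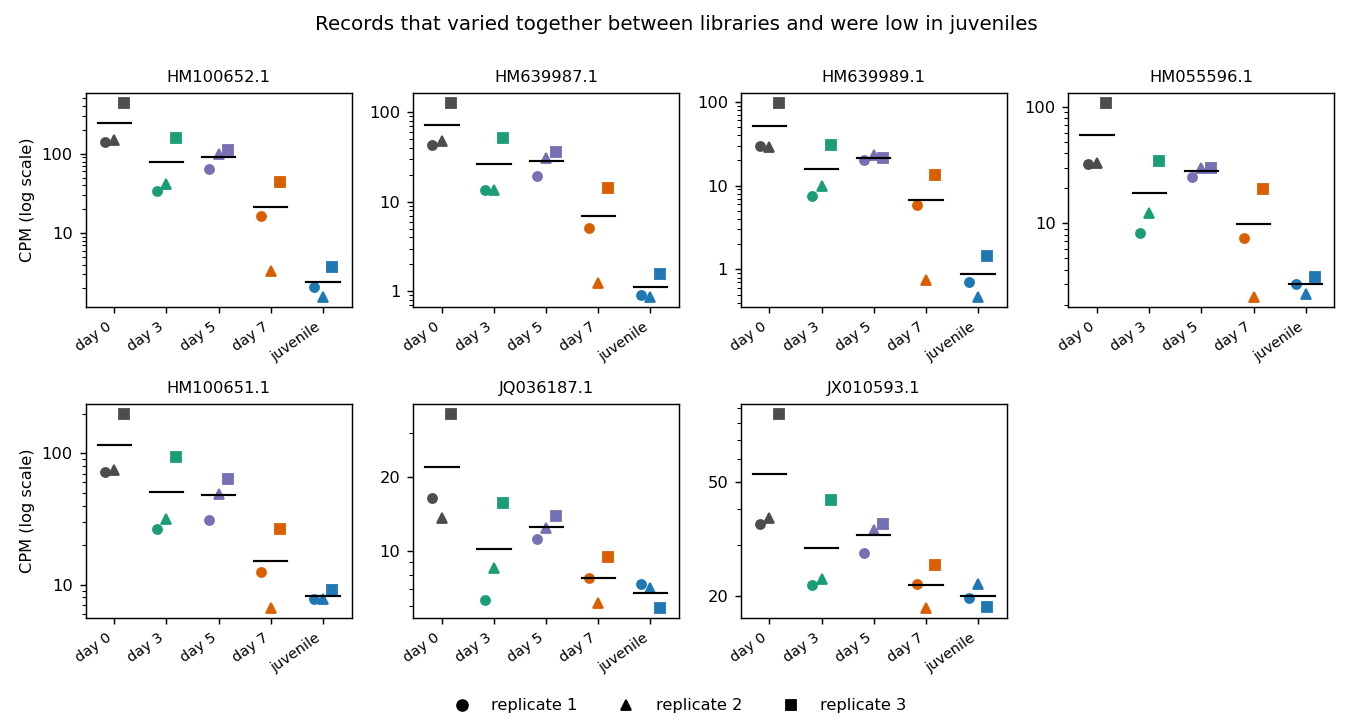
CPM (vertical axes, log scale) in each of 15 libraries for 7 records that varied together, with a line at each group mean and a symbol per replicate. Day 0 replicate 3 was the highest library in every panel, and juveniles were at 1.56 to 3.67 CPM for HM100652.1, against 142 to 442 CPM at day 0.

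Summed over the 7, the libraries held 370.1, 385.0 and 1096 CPM at day 0, 118, 140.0 and 429 CPM at day 3, 199, 278 and 312 CPM at day 5, 77.2, 38.5 and 152 CPM at day 7, and 41.6, 42.3 and 43.4 CPM in juveniles. Replicate 3 held the highest sum of its group at day 0 and day 3, and day 7 replicate 2 held the lowest of its group. Replicate 3 of day 0 and of day 3 also lay apart from their groups on the first principal component. On it, day 7 replicate 2 was the day 7 library nearest to juveniles. The part of that component in the values of the 7 records was not tested.

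A second group of 5 records was highest at day 3 or day 5 and lowest in juveniles. JX010493.1 had 20.7, 22.6 and 11.9 CPM at day 0, 134, 92.2 and 82.8 at day 3, 86.7, 93.7 and 52.2 at day 5, 69.2, 44.4 and 66.5 at day 7 and 5.99, 5.29 and 5.19 in juveniles. No other group overlapped day 0 or juveniles. The record rose at day 3 (log2 fold change 2.49 ± 0.317 (SE), adjusted p = 0.0014) and day 7 (log2 fold change 1.71 ± 0.310 (SE), adjusted p = 0.004) against day 0. It fell in juveniles against day 0 (log2 fold change -1.74 ± 0.327 (SE), adjusted p = 0.0023). Its juvenile mean was under 10 CPM and it reached the minimum through its higher groups, so this juvenile call is description only. JX010472.1 had 17.5, 17.1 and 25.7 CPM at day 0, 74.0, 39.9 and 65.7 at day 3, 65.5, 61.4 and 61.1 at day 5, 39.5, 16.9 and 28.0 at day 7 and 5.36, 5.12 and 4.32 in juveniles. It rose at day 3 (log2 fold change 1.57 ± 0.311 (SE), adjusted p = 0.013) and day 5 (log2 fold change 1.64 ± 0.312 (SE), adjusted p = 0.009), and its day 7 libraries overlapped those of day 0.

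JX010567.1 had 355, 283 and 222 CPM at day 0, 783, 563 and 526 at day 3, 538, 507 and 392 at day 5, 506, 429 and 566 at day 7 and 124, 131 and 109 in juveniles. It rose at day 3 (log2 fold change 1.12 ± 0.207 (SE), adjusted p = 0.0088) and fell in juveniles against day 0 (log2 fold change -1.24 ± 0.208 (SE), adjusted p = 0.0012), with juvenile libraries below every trunk library. Its day 7 call against day 0 (adjusted p = 0.018) was lost without day 0 replicate 2 or 3 or day 7 replicate 1 or 3. JX010578.1 had 66.9, 24.8 and 98.3 CPM at day 0, 305, 226 and 275 at day 3, 194, 231 and 176 at day 5, 192, 109.8 and 187 at day 7 and 54.6, 55.6 and 26.1 in juveniles. Every day 3 library lay above every day 0 library (log2 fold change 2.09 ± 0.465 (SE), adjusted p = 0.022), a call lost without day 0 replicate 1 or day 3 replicate 1 or 2 (adjusted p up to 0.063). JX010591.1 had 66.8, 60.6 and 34.3 CPM at day 0, 175, 108 and 113 at day 3, 102, 109 and 71.9 at day 5, 85.1, 74.6 and 90.4 at day 7 and 10.4, 4.40 and 12.5 in juveniles. The difference at day 3 against day 0 was not called (log2 fold change 1.29 ± 0.370 (SE), adjusted p = 0.059), and the record was lower in juveniles than at day 0 (log2 fold change -2.57 ± 0.397 (SE), adjusted p = 0.00079) and higher at day 7 than in juveniles (log2 fold change 3.20 ± 0.404 (SE), adjusted p = 0.00064). JX010591.1 had a juvenile mean under 10 CPM and reached the minimum through its higher groups, so its juvenile calls are description only. Among the 5, pairwise correlations over the 12 trunk libraries lay between 0.628 and 0.959 on the same scale.

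GU591869.1 showed the largest difference between day 7 and juveniles among the 264. It had 700.1, 718 and 729 CPM at day 0, 1369, 1667 and 1223 at day 3, 2296, 1947 and 1911 at day 5, 3332, 2391 and 2553 at day 7 and 80.8, 32.2 and 106 in juveniles. Each later group mean was higher than the one before it over the trunk series, and juveniles lay below all trunk libraries. It rose at day 7 against day 0 (log2 fold change 1.95 ± 0.342 (SE), adjusted p = 0.0034), fell in juveniles against day 0 (log2 fold change -3.30 ± 0.362 (SE), adjusted p = 7.5e-05) and was 37.8-fold higher at day 7 than in juveniles (log2 fold change 5.24 ± 0.396 (SE), adjusted p = 1.6e-05). The day 5 call against day 0 (adjusted p = 0.019) was lost without any 1 of the 3 day 0 libraries or without day 5 replicate 1 or 2, at an adjusted p of up to 0.064, and no pair of neighbouring days was called.

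A further pair of records changed in other ways. JX010559.1 had 414, 604 and 482 CPM at day 0, 65.7, 109 and 160.4 at day 3, 207, 210.1 and 298 at day 5, 417, 535 and 249.7 at day 7 and 1000.4, 1057 and 957 in juveniles. Its day 3 libraries lay below all others and its juvenile libraries above all others. It fell at day 3 against day 0 (log2 fold change -2.16 ± 0.352 (SE), adjusted p = 0.0052), and at day 7 it was higher than at day 3 (log2 fold change 1.84 ± 0.348 (SE), adjusted p = 0.031) and lower than in juveniles (log2 fold change -1.33 ± 0.342 (SE), adjusted p = 0.039). Its juvenile call against day 0 (log2 fold change 1.01 ± 0.340 (SE), adjusted p = 0.046) and both day 7 calls were each lost in 10 or 11 of 15 fits that left out 1 library, with adjusted p-values of up to 0.14. All 3 were lost without day 0 replicate 3, day 3 replicate 2, day 5 replicate 1 or 2, day 7 replicate 1 or any 1 juvenile library, whereas the day 3 call against day 0 held in all 15. JX010572.1 had 476, 515 and 483 CPM at day 0, 190.5, 129 and 208 at day 3, 229, 210.0 and 162 at day 5, 148, 84.5 and 111 at day 7 and 75.6, 181 and 296 in juveniles. Day 0 libraries lay above all others, and the record fell at day 7 (log2 fold change -2.10 ± 0.422 (SE), adjusted p = 0.0067) and in juveniles (log2 fold change -1.42 ± 0.413 (SE), adjusted p = 0.024) against day 0. The juvenile call was lost without day 0 replicate 2 or 3 or juvenile replicate 2 (adjusted p up to 0.072), and both calls were lost without the 3 libraries that stood apart.

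**Figure D5:**
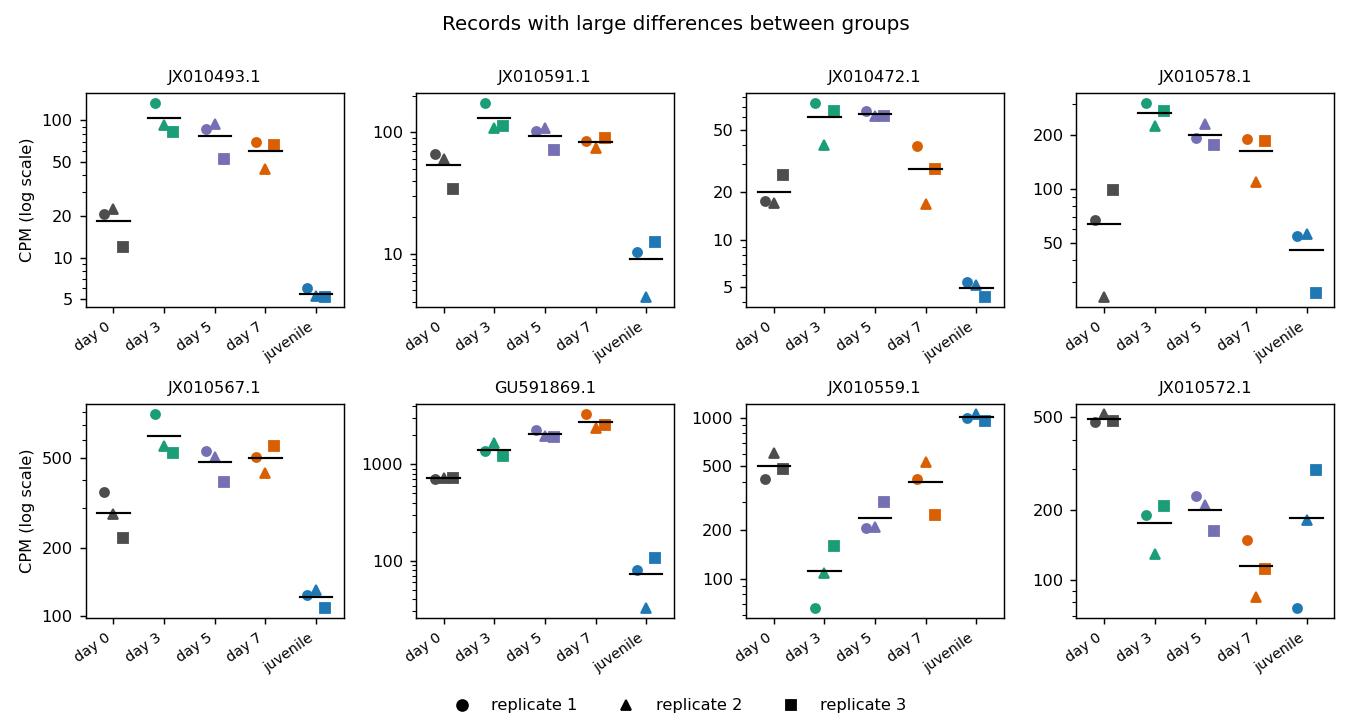
CPM (vertical axes, log scale) in each of 15 libraries for 8 records with large differences between groups, with a line at each group mean. The first 5 were highest at day 3 or day 5, GU591869.1 rose over the trunk series to 2391 to 3332 CPM at day 7 and was at 32.2 to 106 CPM in juveniles, JX010559.1 was lowest at day 3, and JX010572.1 was highest at day 0.

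Of the remaining records with a ratio of at least 2, JX010583.1 had 26.4, 29.1 and 36.3 CPM at day 0, 18.7, 17.0 and 24.7 at day 3, 19.7, 18.1 and 18.7 at day 5, 16.1, 15.5 and 15.6 at day 7 and 12.2, 13.5 and 15.3 in juveniles. It fell at day 3 (log2 fold change -0.61 ± 0.133 (SE), adjusted p = 0.012), day 7 (log2 fold change -0.96 ± 0.134 (SE), adjusted p = 0.00024) and in juveniles (log2 fold change -1.16 ± 0.135 (SE), adjusted p = 1.9e-05), all against day 0, and no later library reached day 0. JN621812.1 had 39.5, 39.1 and 20.2 CPM at day 0, 27.5, 19.99 and 22.7 at day 3, 23.9, 22.5 and 20.2 at day 5, 20.9, 15.8 and 14.9 at day 7 and 16.5, 14.0 and 15.7 in juveniles. Replicate 3 of day 0 lay within the range of the later days. The record fell in juveniles against day 0 (log2 fold change -1.09 ± 0.237 (SE), adjusted p = 0.0045), and its day 7 call (adjusted p = 0.016) was lost in 4 of 15 fits, without day 0 replicate 1 or 2 or day 7 replicate 2 or 3, at an adjusted p of up to 0.071. JX010604.1 had 8.83, 8.50 and 7.00 CPM in juveniles, against 18.8, 14.2 and 16.3 CPM at day 0, without overlap (log2 fold change -1.02 ± 0.113 (SE), adjusted p = 5.3e-06). JX010531.1 had 20.8, 14.9 and 24.5 CPM at day 7, against 13.7, 8.36 and 7.90 CPM at day 0 (log2 fold change 1.01 ± 0.227 (SE), adjusted p = 0.009), a call lost without day 0 replicate 3, at an adjusted p of 0.05, and against 6.94, 7.39 and 8.51 CPM in juveniles (log2 fold change 1.40 ± 0.229 (SE), adjusted p = 0.0023). Both JX010604.1 and JX010531.1 had juvenile means under 10 CPM and reached the minimum through higher groups. Their juvenile calls are therefore description only.

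None of the 9 tests called 84 of the 264 records (31.8%), beside 61.4% of all records tested and 30.7% of those of at least 10 CPM. Their ratio of the highest to the lowest group mean ran from 1.04 to 2.87 with a median of 1.13. The highest belonged to JX010574.1, with 29.6, 26.6 and 6.79 CPM at day 0, 20.6, 14.0 and 7.00 at day 3, 5.91, 9.14 and 10.002 at day 5, 9.70, 9.80 and 5.997 at day 7 and 9.08, 4.35 and 8.51 in juveniles. Replicate 3 of day 0 lay at the level of day 7 and juveniles while the other 2 day 0 libraries lay above all others, and the log2 fold change in juveniles against day 0 was -1.52 ± 0.567 (SE, adjusted p = 0.067).

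Many of the 264 records had counts close to those of a record whose identifier starts with GDAG. In 189 (71.6%) at least 1 GDAG record lay within 10% of the record's count in every library, and 108 of these had exactly 1. HM100652.1 averaged 83.0 raw CPM over 15 libraries and its GDAG counterpart also 83.0, with a log2 fold change in juveniles against day 0 of -6.67 for each. JX010560.1 averaged 35.2 raw CPM and its counterpart 36.7, both with a log2 fold change of 1.52 in juveniles. Over the 108 the 2 records differed by at most 0.102 in the log2 fold change of juveniles against day 0 and by at most 0.142 in that of day 7. Such a pair cannot be taken as independent measurements. The sources used here do not say how the authors assigned reads shared by such records. Some matches may be coincidences, since 1 record had 265 matches at a tolerance of 20% and others up to 11 at 10%. Within the set, 10 records formed 5 pairs in which at least 1 record lay within 10% of the other's count in every library. None were identical, and counting each pair once left 259. Of the 27 records with a ratio of at least 2, 15 had a GDAG counterpart.

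By the letters that open the identifier, 113 of the 264 records began with JX, 30 with JQ, 19 with GU, 15 with JN, 14 with KC, and 12 each with EU and HM. Of the 27 records with a ratio of at least 2, 17 were JX records and 5 were HM records, and those 5 were all among the 7 that varied together. In juveniles against day 0, 20 of the 113 JX records were higher and 41 lower, beside 48 higher and 41 lower of the other 151. Among the other prefixes with at least 10 records, 15 were higher and 3 lower of 30 JQ records, 9 and 4 of 19 GU, 1 and 11 of 15 JN, 2 and 2 of 14 KC, 4 and 3 of 12 EU, 3 and 7 of 12 HM, 6 and 1 of 11 DQ and 1 and 3 of 11 FJ. Beside these, the same comparison called 16.3% higher and 39.7% lower of all records of at least 10 CPM, and 12.1% and 19% of all records tested. The counts by prefix are descriptions with no test, and the letters carry no function.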

How the data were processed

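Poly(A) RNA of 15 libraries was measured. The deposited table holds raw read counts, 1 row per sequence record, which the authors had not normalized, as judged from the values. Bowtie2 is named in the submitters' processing notes. The sources used here do not give its version, the counting tool or the sequence set. Per the labels' protocols the kit was TruSeq v2, which does not keep strand, so overlapping transcripts cannot be told apart.

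Records with low counts were removed with filterByExpr (minimum count 10, total 15), leaving 46736. One robust quasi-likelihood fit of all 15 libraries (edgeR 4.0.16, limma 3.58.1, R 4.3.3) with TMM scaling gave 10 residual degrees of freedom, and p-values were Benjamini-Hochberg adjusted over all records tested. The 264 records were selected on raw CPM, which also gives the means over all 15 libraries; CPM values of single libraries and groups use TMM-scaled sizes. The script was tested on simulated data. Alternatives were other scaling, DESeq2 1.42.0, no filter, a replicate block, fits of the compared groups alone, other CPM minimums and tolerances, and leaving out libraries. Named were the 2 rising and 2 falling records with the smallest adjusted p in each of 5 comparisons, the 3 with the highest mean CPM and those nearest the minimum; other names were chosen after their values were seen. The records and tests were chosen with earlier results of these data known. Lists of named genes could not be matched to identifiers. Same-numbered day 0 and day 3 libraries deviated together (correlations 0.24, 0.174 and 0.515), so the numbers were taken to pair those groups, and no others. This pairing is an inference from these data, and the labels do not state it. The block fit itself used all 15 libraries, so the block also linked same-numbered libraries of the other groups.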

Additional observations from a re-analysis of the deposited data

How the results depend on the processing

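Of 116 tested differences of single records, each recomputed in every fit, none changed direction. All 116 kept their call under RLE scaling and DESeq2, 107 without the low-count filter, 114 with the replicate block, 85 in fits of the compared groups alone and 104 without the 3 libraries that stood apart, an alternative added after seeing the data. Leaving out single libraries ended the call in 136 fits and kept it in 1604. Calls of the 264 records in fits of the compared groups alone were 8 at day 3 and 58 at day 7 against day 0, 10 for day 7 against day 5 and 2 for day 7 against day 3. Requiring at least 2-fold left 5, 3, 11 and 21 calls at day 3, day 5, day 7 and in juveniles against day 0, 0 for day 7 against day 5, 1 against day 3 and 11 against juveniles. A mean CPM minimum of 20 gave 58 calls at day 7 against day 0, over fewer records. Without a filter, day 5 against day 3 gave 1, day 7 against day 5 gave 5 and day 7 against day 3 gave 2. DESeq2 gave 3, 9 and 12 for those comparisons, and fits without the 3 libraries gave 6, 8 and 1. With the replicate block, day 7 against day 5 gave 12 and day 7 against day 3 gave 7. Day 3 against day 0, taken as paired from these data, gave 62 (26 higher, 36 lower) beside 47, in the same block fit of all 15 libraries. The block moved no other count by over 1.5 times. A 5% tolerance left 117 records with a GDAG counterpart. Leaving out 1 library at a time, the calls against day 0 ranged from 24 to 46 for day 3, from 40 to 69 for day 5, from 63 to 96 for day 7 and from 130 to 153 for juveniles. They ranged from 0 to 1 for day 5 against day 3, 1 to 6 for day 7 against day 5, 1 to 4 for day 7 against day 3, 44 to 72 for day 7 against juveniles and 56 to 86 for the F test. The cause of these shifts was not tested. The lowest count of any of the 264 records in a library was 19, and 3 libraries a group limit the precision.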
